A study of Mus musculus with 860 samples.

Results

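A group of 10 genes of the primordial germ cell (PGC) program was followed through single cells of the mouse aorta-gonads-mesonephros (AGM) region. They are Dppa3, Dppa4, Dppa5a, Utf1, Pou5f1, Nanos3, Rhox5, Rhox6, Rhox9 and Ifitm3, 10 of the 46078 genes in the count table. They were chosen by their measured level in cluster 8, 1 of the 11 Louvain clusters of the deposited annotation, so their contrast between cluster 8 and the rest is given as a description without a test, and no gene of these clustered cells tests that cluster. Cluster 8 held 25 of the 775 cells that the authors kept. Another 85 of the 860 sequenced cells were left out by the authors and have no cluster.

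The cells came from pooled Gfi1:tomato embryos on a CD1 background, in which a tomato reporter marks cells with an active Gfi1 gene, a regulator of the endothelial to hematopoietic transition. Each cell was index sorted into a well and sequenced as its own Smart-Seq2 library. The gates were CD31+cKIT+GFI1+ (GFI1+ IAHC, intra-aortic hematopoietic clusters), CD31+cKIT+GFI1- (GFI1- IAHC) and CD31+cKIT-GFI1+ (GFI1+ HE, hemogenic endothelium). Of the sequenced cells, those of E11.5 were 29.9% (GFI1+ IAHC), 21% (GFI1- IAHC) and 22.4% (GFI1+ HE), and those of E10.5 were 13.6% (GFI1+ IAHC), 0.349% (GFI1- IAHC, 3 cells) and 12.7% (GFI1+ HE), in the batches GL53, GL58, GL69 and GL78. The labels tie no cell to an embryo, so each group of cells counted as 1 sample and no p-value was computed.

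In the mouse, PGCs are set aside in the epiblast under BMP signals, migrate along the hindgut and its mesentery, and reach the genital ridges, which lie next to the dorsal aorta inside the AGM region, at about the stages sampled here. They carry surface cKIT and CD31, keep or regain pluripotency genes, erase DNA methylation over most of the genome and reactivate the silent X chromosome in females. After they enter the gonad they switch on genes such as Dazl and Ddx4.

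The members fall into 3 kinds. Pou5f1 encodes OCT4, the POU factor at the center of pluripotency, and Utf1 encodes a chromatin-bound protein of pluripotent cells. Dppa3 (also called Stella) protects methylation marks in the zygote and labels early PGCs, Dppa4 is a DNA-binding protein that acts with Dppa2 in pluripotent cells, Dppa5a encodes a KH-domain protein of pluripotent and germ cells, Nanos3 is an RNA-binding protein needed for PGC survival, and Ifitm3 (Fragilis) is an interferon-inducible membrane protein that marks PGC precursors. Rhox5, Rhox6 and Rhox9 are homeobox genes of the reproductive homeobox cluster on the X chromosome.

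On GRCm38 the 3 Rhox members lay at chrX:37804842-37808876 (Rhox5), chrX:37826910-37829857 (Rhox6) and chrX:37899097-37901770 (Rhox9). The other 7 lay on 6 further chromosomes, with Utf1 at chr7:139943789-139945112 and Ifitm3 at chr7:141009586-141010770 on the same one. Promoter windows from RefSeq (GRCm38.p6), which run from 250 bases before to 50 bases after the annotated start, matched 5 of the 10 members. Those of Rhox5 (chrX:37754358-37754657) and Nanos3 (chr8:84176503-84176802) were not at the GENCODE gene start. The Rhox5 window lay outside the gene, and the Nanos3 window lay inside it. The windows of Utf1 (chr7:139943606-139943905, + strand) and Pou5f1 (chr17:35505782-35506081, + strand) are shown as the pluripotency members of the group, with GC boxes (GGGCGG) in capitals, and that of Ifitm3 (chr7:141010695-141010994, - strand) as the member that was also read outside cluster 8, with the interferon response core GAAANNGAA in capitals.
Utf1: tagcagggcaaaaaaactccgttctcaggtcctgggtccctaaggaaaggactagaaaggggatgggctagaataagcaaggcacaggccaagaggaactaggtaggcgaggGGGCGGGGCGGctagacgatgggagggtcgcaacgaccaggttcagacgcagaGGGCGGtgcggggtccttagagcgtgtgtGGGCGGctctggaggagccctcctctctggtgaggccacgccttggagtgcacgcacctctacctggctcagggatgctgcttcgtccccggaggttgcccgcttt
Pou5f1: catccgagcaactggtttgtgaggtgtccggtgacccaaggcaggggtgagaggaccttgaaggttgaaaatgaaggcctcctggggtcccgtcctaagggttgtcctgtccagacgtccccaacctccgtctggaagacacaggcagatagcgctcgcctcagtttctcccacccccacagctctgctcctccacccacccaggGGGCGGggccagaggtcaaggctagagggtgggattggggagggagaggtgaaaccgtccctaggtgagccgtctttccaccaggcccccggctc
Ifitm3: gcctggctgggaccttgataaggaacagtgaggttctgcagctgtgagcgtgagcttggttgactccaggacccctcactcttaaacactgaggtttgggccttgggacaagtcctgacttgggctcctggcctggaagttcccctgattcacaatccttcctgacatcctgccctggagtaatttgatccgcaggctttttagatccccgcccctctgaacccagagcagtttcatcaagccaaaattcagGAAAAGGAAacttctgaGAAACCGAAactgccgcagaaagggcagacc
Motifs were searched on both strands, and matches could overlap. The Utf1 window held 4 GC boxes, the first pair sharing a base, and 17 CG pairs, against a median of 7 CG pairs over all 32544 RefSeq windows. The Pou5f1 window held 1 GC box, 1 match to the TFAP2 site GCCNNNGGC and 1 to GAAANNGAA, and the Ifitm3 window held 1 GC box, on the strand not shown, and 2 GAAANNGAA matches. Of all windows, 35.9% held a GC box, 16.7% the TFAP2 site, 8.53% the interferon response core and 1.75% the octamer ATGCAAAT, which none of the 5 matched members held. A match describes the letters of the window only.

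Cluster 8 drew its 25 cells unevenly from the gates. It took 15 of 240 kept E11.5 GFI1+ IAHC cells (6.25%, exact binomial 95% interval 3.54 to 10.1%) and 1 kept E11.5 GFI1- IAHC cell (0.741% of that gate, 0.0188 to 4.06%). It took none of the kept E11.5 GFI1+ HE cells (0%, 0 to 2.12%). At E10.5 it took 5 GFI1+ IAHC cells (4.31% of the kept cells of that gate, 1.41 to 9.77%), 0 of 3 GFI1- IAHC cells and 4 GFI1+ HE cells (3.67%, 1.01 to 9.13%). The cells were therefore mostly, not all, sorted as cKIT+: 21 came from cKIT+ gates and 4 from the cKIT- gate. Within the E11.5 GFI1+ IAHC gate the share was 3.31% in GL53, 20% in GL58 (6 of 30 cells) and 5.62% in GL78. These intervals cover counting error only.

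Depth in cluster 8 ran from 362365 to 1086303 counts per cell (median 703919), close to the median of 728931 in the other kept cells, with 7949 detected genes per cell in cluster 8 and 7448 in the others at the median. PGC markers that are not members describe the label. They were read in the cells whose expression built the cluster, so they do not test it. Cluster 8 read 199.1 counts per 1000000 counts (CPM) of Tfap2c, a factor of PGC specification that had 0 reads in the other 750 kept cells (at most 0.00532 CPM for a count of 0), 118.4 CPM of Nanog against 0.206 CPM in the other cells, and 127.1 CPM of Sox2 against 0.0745 CPM. Prdm1, the factor that starts PGC specification, stood at 61.8 CPM in cluster 8 and 26.9 CPM in the other cells. The endothelial Cdh5, the pan-leukocyte Ptprc, the hematopoietic Runx1 and Gfi1 itself had 0 reads in all 25 cells, which allows up to 0.176 CPM.

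All 10 members were read in cluster 8, and 9 of them were close to absent elsewhere. Their summed level was 8287 CPM in cluster 8 and 119.04 CPM in the other kept cells, of which Ifitm3 made up 114.7 CPM. The median member log2 ratio of cluster 8 over the other cells was 8.88, computed on CPM of summed counts plus 1, and all 10 members were at least 2-fold higher. Over the 10539 genes at 10 CPM or more on either side, the median was -0.04, 17.5% were at least 2-fold higher in cluster 8 and 28.2% at least 2-fold lower. Dppa5a, Rhox9, Dppa3 and Rhox6 had the 4 highest ratios of all genes compared, and the other members ranked 6 (Utf1), 7 (Rhox5), 8 (Dppa4), 20 (Pou5f1) and 60 (Nanos3), with Ifitm3 lower in the order. Since this contrast chose the members, the ranks are no evidence for them.

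Among the pluripotency members, Utf1 had 699 CPM in cluster 8 and 0.483 CPM in the other cells (log2 ratio 8.88). Pou5f1 was read more thinly, at 146.8 CPM in cluster 8 and 0.154 CPM in the other cells (log2 ratio 7.00). Across the 25 cells Utf1 ran from 0 to 1163 CPM (median 672) and Pou5f1 from 0 to 426 CPM (median 114.8), and 24 of the 25 cells had reads of each.

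Of the Dppa members, Dppa5a had the highest CPM of all 10 members in cluster 8 and Dppa4 a lower CPM than the 3 Rhox members. Dppa5a stood at 2014 CPM in cluster 8 and 0.646 CPM in the other cells (log2 ratio 10.26), and ran from 267.8 to 3616 CPM over the 25 cells (median 2036). Dppa3 stood at 1159 CPM in cluster 8 and 0.626 CPM in the other cells (log2 ratio 9.48), with cells from 0 to 2130 CPM (median 1197). Dppa4 stood at 428 CPM in cluster 8 and 0.0319 CPM in the other cells (log2 ratio 8.70), with cells from 0 to 1212 CPM (median 442). Each of the 3 was read in at least 24 of the 25 cells and in 7 or fewer of the 750 others. Part of their sequence is shared with other annotated genes: 20.1% of the 75-base windows of Dppa4 transcripts and 19.4% of those of Dppa5a also occur in another gene, mostly the predicted genes Gm14058 and Gm6798, so their counts are less certain than those of Utf1, Nanos3 and Rhox5, which share none.

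The X-linked members were within 2-fold of each other. Rhox5 had 1145 CPM in cluster 8 and 1.43 CPM in the other cells (log2 ratio 8.88), Rhox9 had 899 CPM in cluster 8 and 0.222 CPM elsewhere (log2 ratio 9.52), and Rhox6 had 614 CPM in cluster 8 and 0.2005 CPM elsewhere (log2 ratio 9.0). Over the cells of the cluster Rhox5 ran from 0 to 1816 CPM (median 1114), Rhox6 from 0 to 1019 CPM (median 570) and Rhox9 from 223.5 to 1494 CPM (median 1009). Rhox6 and Rhox9 share 75-base windows with each other (11.6% and 4.31% of their windows), so a small part of their reads could be split between them.

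Nanos3 and Ifitm3 were the least restricted members. Nanos3 had 78.6 CPM in cluster 8 and 0.520 CPM in the other cells (log2 ratio 5.71), with 4 of 25 cells at 0 and a range up to 560 CPM (median 53.98). Its relative spread was the widest of the members (coefficient of variation 1.35, against 0.406 to 0.667 for the other 9). The 560 CPM came from E10.5 GFI1+ HE cell 4, which had the lowest depth of the 25. The next highest cell had 310.9 CPM, and the spread without cell 4 was not computed. Ifitm3 had 1103 CPM in cluster 8 and 114.7 CPM in the other cells (log2 ratio 3.25), and was read in 25 of 25 cells of the cluster and in 553 of 750 others (73.7%). Its cells in cluster 8 ran from 120 to 2540 CPM (median 811), and those outside from 0 to 2382 CPM (median 58.2), so the ranges overlapped. Of all reads of a member in kept cells, cluster 8 held 22.5% for Ifitm3, 82.1% for Nanos3, and 96.03% (Rhox5) to 99.75% (Dppa4) for the other 8.

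Levels of different genes were compared per kilobase of annotated exon. On this scale Dppa5a was the highest member in cluster 8, at 3254 CPM per kb, the level ranked 7 of the 18081 genes with reads there. Ifitm3 (1627), Rhox5 (1519) and Dppa3 (1299) came next, then Rhox6 (608), Utf1 (570), Rhox9 (361.3) and Dppa4 (257.5 CPM per kb). Nanos3 (85.1) and Pou5f1 (65.3 CPM per kb), the RNA-binding protein and the transcription factor, were the lowest.

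**Figure D1:**
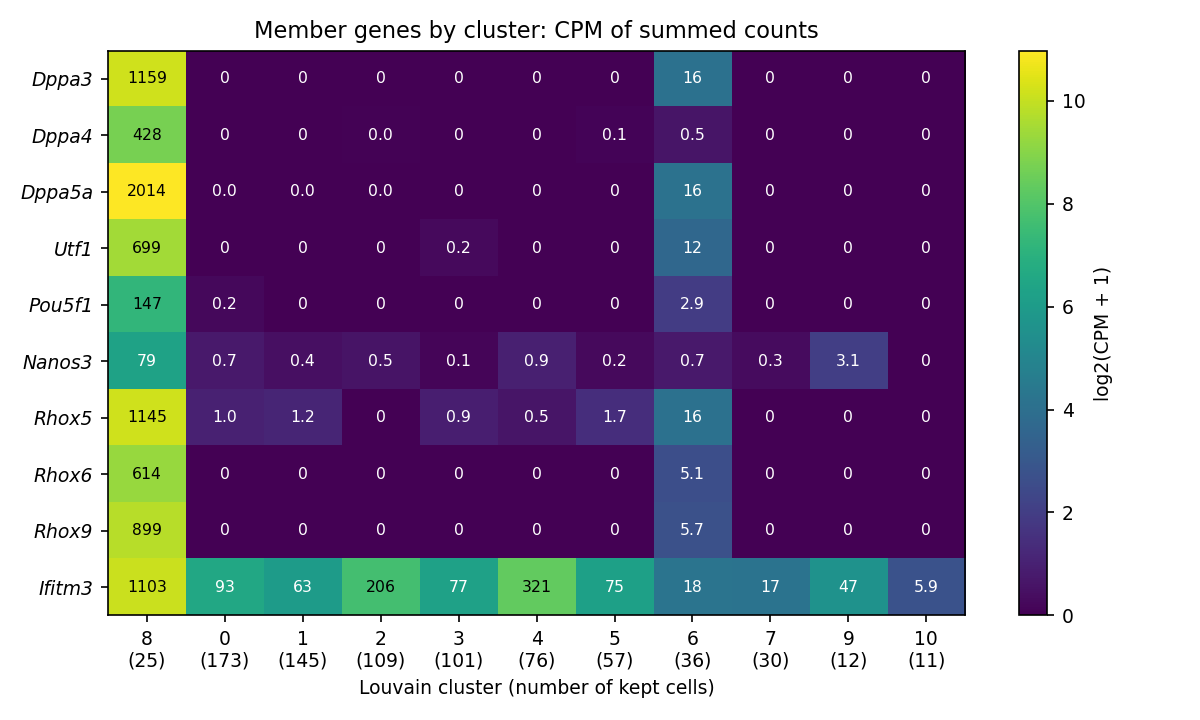
Level of each member (rows) in each Louvain cluster (columns, cluster 8 at the left, number of kept cells in brackets), as CPM of summed counts printed in the cell and log2(CPM + 1) as the color. The 9 members other than Ifitm3 are at 78.6 CPM or more in cluster 8, at 0.545 to 16.4 CPM in cluster 6 and at 3.12 CPM or less in each other cluster, while Ifitm3 is read in all 11.

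Outside cluster 8 the 9 members other than Ifitm3 added up to 4.32 CPM, against 7184 CPM in cluster 8, and to 1.45 CPM once cluster 6 was also set aside. Cluster 6 (36 cells) carried 16.04 CPM of Dppa3, 16.4 CPM of Dppa5a, 15.9 CPM of Rhox5 and 11.6 CPM of Utf1. These reads came from 4 cells for Dppa3, 4 for Dppa5a, 7 for Rhox5 and 3 for Utf1, and 1 cell held most of those of Dppa3, Dppa5a and Utf1. Without that cell the levels were 7.14 CPM of Dppa3, 4.41 CPM of Dppa5a, 10.6 CPM of Rhox5 and 3.85 CPM of Utf1, and the 9 members added up to 29.7 CPM in place of 74.9 CPM. Every read of Dppa3, Rhox6 and Rhox9 outside cluster 8 was in cluster 6. Elsewhere Rhox5 reached 1.72 CPM (cluster 5), and Nanos3 3.12 CPM (cluster 9, from 1 of 12 cells).

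Ifitm3 had an order of its own across the clusters. After the 1103 CPM of cluster 8 came 321.05 CPM in cluster 4 and 205.9 CPM in cluster 2, then 93.4 CPM (cluster 0), 77.4 (cluster 3), 75.1 (cluster 5), 63.2 (cluster 1), 46.97 (cluster 9), 17.7 (cluster 6), 17.1 (cluster 7) and 5.86 CPM (cluster 10). The exact Poisson intervals of clusters 3 and 5 (75.4 to 79.4 and 72.7 to 77.6 CPM) and of clusters 6 and 7 (15.96 to 19.5 and 15.4 to 19.1 CPM) overlapped, and those of the other neighbors did not. These intervals leave out the spread between cells and embryos.

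The members were read together in single cells. All 25 cells of cluster 8 had at least 5 of the 10 members with a read (100%, exact interval 86.3 to 100%): 19 had all 10, 5 had 9 and 1 had 5. Of the 750 other kept cells, 4 had at least 3 of the 9 members other than Ifitm3 (0.533%, 0.145 to 1.36%), and all 4 were E11.5 GFI1- IAHC cells of cluster 6. One of them, from GL53 and the cell that held most of the reads in cluster 6, had 8 of the 9, with 439 CPM of Dppa3, 587 CPM of Dppa5a and 381.98 CPM of Utf1 and no Nanos3 or Ifitm3. It lay in the well next to the only GFI1- IAHC cell of cluster 8 on the same plate, and the part of that well in its reads was not tested. The other 3 had 3 or 4 members at 29.5 to 119.4 CPM. In the 714 cells of the remaining 9 clusters the highest number was 2.

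**Figure D2:**
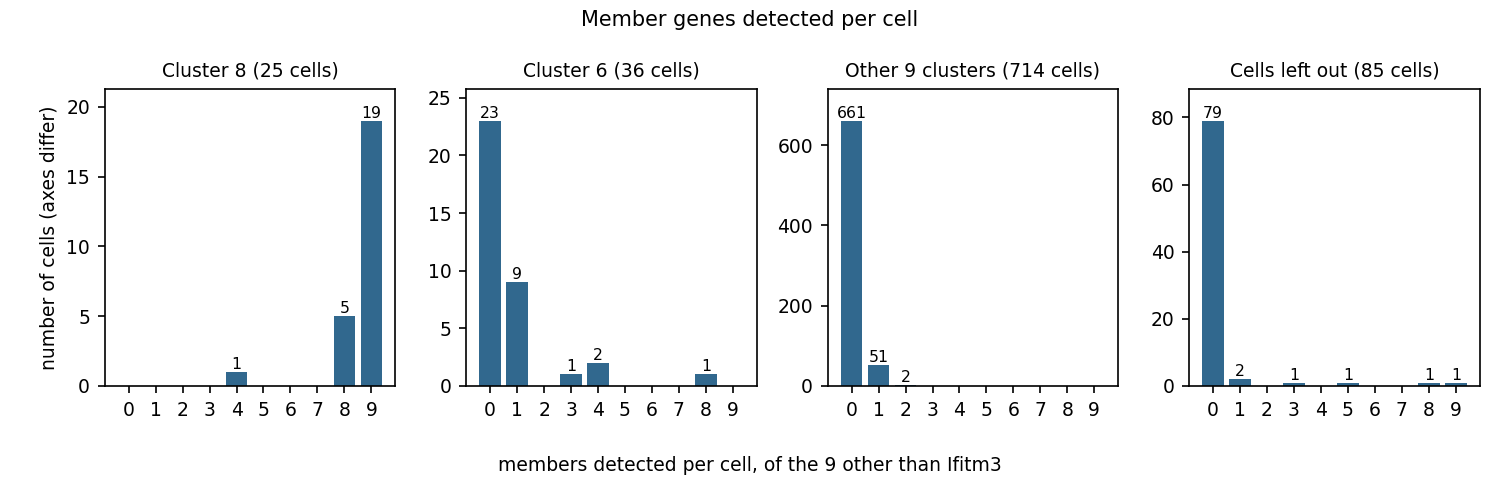
Number of cells (vertical axis, scales differ) by how many of the 9 members other than Ifitm3 had a read (horizontal axis), in cluster 8, cluster 6, the other 9 clusters and the cells left out by the authors. In cluster 8, 24 of 25 cells have 8 or 9 members. In the 714 cells of the other 9 clusters, 661 have none.

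One cell of cluster 8 stood apart. E10.5 GFI1+ HE cell 4 had 362365 counts and 3037 genes, the lowest of the 25 in both, and 4.27% mitochondrial counts, the highest. It had no read of Dppa3, Utf1, Pou5f1, Rhox5 or Rhox6, and none of Tfap2c, Nanog, Sox2 or Kit. It still had 358.8 CPM of Dppa5a, 223.5 CPM of Rhox9, 140.7 CPM of Dppa4 and 560 CPM of Nanos3, the highest Nanos3 value of all, with 477 CPM of Alpl (the alkaline phosphatase used to stain PGCs) and 389 CPM of Sall4. The part of its depth in these values was not tested, and results on stage are given with and without it.

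Between members, the levels of the 25 cells were loosely related. Over the 45 pairs of members the median Pearson r of log2(CPM + 1) was 0.40, and 0.20 over the 24 cells with at least 9 members, so part of the relation rested on the 1 cell that lacked 5 of them. In these 24 cells Dppa4 and Dppa5a had the highest r (0.71) and Dppa5a and Ifitm3 the lowest (-0.51). The cells share batches and stages, and the values are a description.

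Seen by gate, the members followed the cells of cluster 8. Ratios were taken within batches that held at least 10 cells of both groups. For the summed members, E11.5 GFI1+ IAHC had 436 CPM against 170.6 CPM in E11.5 GFI1+ HE in GL53, 1778 against 105.4 CPM in GL58 and 374.4 against 113.7 CPM in GL78, log2 ratios of 1.35, 4.06 and 1.71. In every batch 9 of the 10 members were at least 2-fold higher in GFI1+ IAHC, which held for 1.3% of all genes compared. Dppa3, for example, had 44.4, 242.4 and 42.1 CPM in GFI1+ IAHC of GL53, GL58 and GL78 and 0 reads in GFI1+ HE of all 3. Ifitm3 was the exception, with log2 ratios of 0.02, 0.87 and -0.16. Genes compared had at least 10 CPM on either side. Over all batches, Pou5f1 (7.26 CPM in GFI1+ IAHC, 0.178 CPM in GFI1+ HE) and Nanos3 (5.44 and 0.442 CPM) were below that level in both gates. The count of 9 and the 1.3% may therefore not rest on the same minimum. Both are a description, since cluster 8 chose the members. The mean log2 ratio of the sum over the batches was 2.37, and -0.40 without the cells of cluster 8. Without those cells the sum was mostly Ifitm3, 114.2 of 115.9 CPM in GFI1+ IAHC and 146.5 of 147.7 CPM in GFI1+ HE over all batches.

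Against E11.5 GFI1- IAHC, the summed members in E11.5 GFI1+ IAHC were 436 against 172.2 CPM in GL53 and 374.4 against 66.6 CPM in GL78, log2 ratios of 1.34 and 2.47. In both batches 4 members (Dppa3, Dppa4, Dppa5a and Rhox5) were at least 2-fold higher, which held for 0.564% of all genes. This too is a description, since the choice of members rested on cluster 8. Without cluster 8 the mean log2 ratio was 0.61 in place of 1.90. That remaining sum was mostly Ifitm3, 114.2 of 115.9 CPM in GFI1+ IAHC and 53.3 of 73.97 CPM in GFI1- IAHC over all batches. Of the other members only Nanos3 stayed higher in GFI1+ IAHC (0.686 against 0.300 CPM). The rest were lower there, Dppa3 for example at 0 against 4.41 CPM. The GFI1- IAHC gate held 1 cell of cluster 8, with a member sum of 8100 CPM, inside the range of the other 24 (1493 to 11234 CPM), and 120 CPM of Ifitm3, the lowest of the 25. Against E10.5 GFI1+ IAHC, in GL78 alone, E11.5 GFI1+ IAHC had 374.4 against 564 CPM (log2 ratio -0.59). Dppa4 was at least 2-fold higher at E11.5 (log2 ratio 1.63, a rise that 8.79% of all genes reached), and Utf1 (-1.07), Pou5f1 (-1.50) and Ifitm3 (-1.17) at least 2-fold lower, a fall that 2.48% of all genes reached. These sums mix the number of cells of cluster 8 with the level per cell. In GL78, cluster 8 made up 5.62% of the E11.5 and 5.75% of the E10.5 GFI1+ IAHC cells. The stages were next compared cell by cell.

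Cluster 8 had 16 cells of E11.5 and 9 of E10.5, and the member sum did not separate them: the log2 ratio of E11.5 over E10.5 was 0.05, and -0.25 within the GFI1+ IAHC cells of GL78 (5 of each stage). The stages of GL78 lay on different plates, so stage and plate cannot be told apart. All 9 E10.5 cells of the cluster lay on a single plate, so this holds for every stage comparison within cluster 8. In the 10 GFI1+ IAHC cells of GL78, 1 member was at least 2-fold higher at E11.5 and 2 were at least 2-fold lower. Of all 9486 genes compared, 28.6% and 16.2% were, so neither count stands out from the other genes. Rhox5 (-0.05), Nanos3 (-0.20), Rhox9 (-0.26), Dppa3 (-0.27) and Rhox6 (-0.39) differed least.

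Ifitm3 was the member that set the stages apart. In the GL78 GFI1+ IAHC cells it had 793, 673, 498, 1062 and 327.02 CPM at E11.5 and 2089, 1885, 1646, 2301 and 1902 CPM at E10.5 (log2 ratio -1.63). All 5 E11.5 cells were below all 5 E10.5 cells, which held for 0.98% of all genes. With all gates and batches, and without the E10.5 GFI1+ HE cell described above, the 16 E11.5 cells ran from 120 to 1062 CPM (median 675) and the 8 E10.5 cells from 1094 to 2540 CPM (median 1894), still without overlap. Only 15 genes (0.162% of 9264) were lower in every E11.5 cell on that comparison and 3 (0.0324%) were higher. With that cell, at 210 CPM, the ranges overlapped. The other genes that were lower included Gapdh (406 CPM at E11.5, 1814 CPM at E10.5), Rps27, Mif and several ribosomal pseudogenes. In the other GFI1+ IAHC cells of GL78, 13 of the 15 were also lower at E11.5, but only 2 of them at least 2-fold. Rps27 was higher at E11.5 in those cells (log2 ratio 0.27). Ifitm3 was among the 13 (76.4 CPM at E11.5 and 127.4 CPM at E10.5, log2 ratio -0.73, in 84 and 82 cells). All E10.5 cells of cluster 8 lay on a single plate of GL78, so the other batches added E11.5 cells only. The part of plate and batch in the Ifitm3 difference was not tested.

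Dppa4 was higher at E11.5. In the same GL78 cells it had 406, 1212, 344.2, 469 and 690 CPM at E11.5, while at E10.5 it had 0, 123.6, 131.7 and 291.5 CPM, with the fifth cell between the last 2 of these (log2 ratio 2.05). All E11.5 cells were above all E10.5 cells, which held for 0.611% of all genes. The 4 E10.5 GFI1+ HE cells, with 366.2, 678, 538 and 140.7 CPM, overlapped the E11.5 cells, so the difference held between the IAHC gates and not over all E10.5 cells of the cluster. Dppa5a was at 1658 CPM at E11.5 and 993 CPM at E10.5 (log2 ratio 0.74), and the cells overlapped.

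The pluripotency members had lower pooled levels at E11.5, with overlapping cells. Pou5f1 had 85.2, 126.5, 50.6, 7.48 and 98.8 CPM in the E11.5 GFI1+ IAHC cells of GL78 and 113.05, 79.6, 117.7, 426 and 182.2 CPM in those of E10.5 (log2 ratio -1.43). Utf1 had 463 CPM at E11.5 and 801 CPM at E10.5 (log2 ratio -0.79). Over all 25 cells the log2 ratios were -0.57 for Pou5f1 and -0.16 for Utf1.

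Dazl, an RNA-binding protein switched on in gonadal germ cells, is no member and was set beside them as a marker of gonadal germ cells. In the GL78 GFI1+ IAHC cells it had 1180, 531, 275.05, 664 and 866 CPM at E11.5 and 92.1, 0, 0, 0 and 0 CPM at E10.5. Over all cells of the cluster, the 16 of E11.5 had 218.1 to 1966 CPM and the 9 of E10.5 had 0 to 92.1 CPM. These 9 lay on a single plate of GL78, so stage and plate cannot be told apart here either. Ddx4, the germ cell RNA helicase, had 124.1 CPM at E11.5 and 8.33 CPM at E10.5, with 1 E11.5 cell at 0. Of the gonadal germ cell list, 9 of 10 genes were at least 2-fold higher at E11.5 in GL78 (median log2 ratio 2.95), against the 28.6% of all genes. The mesenchyme list had 4 of 5 higher and 1 lower (median 5.80), the migration and adhesion list 5 of 8 higher (median 1.15) and the endothelial list 2 of 2 higher (median 1.26). The mesenchyme and endothelial values rested on few cells. Col1a1, Col1a2 and Col3a1 had reads in 2 of the 5 E11.5 cells and Dcn in 1, and the endothelial Cldn5 in 1 and Eng in 2. The naive pluripotency list had 1 of 11 higher and 1 lower (median 0.08), the specification list 1 of 12 higher and 1 lower (median -0.23) and the methylation list none of 6 higher and 2 lower (median -0.61).

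**Figure D3:**
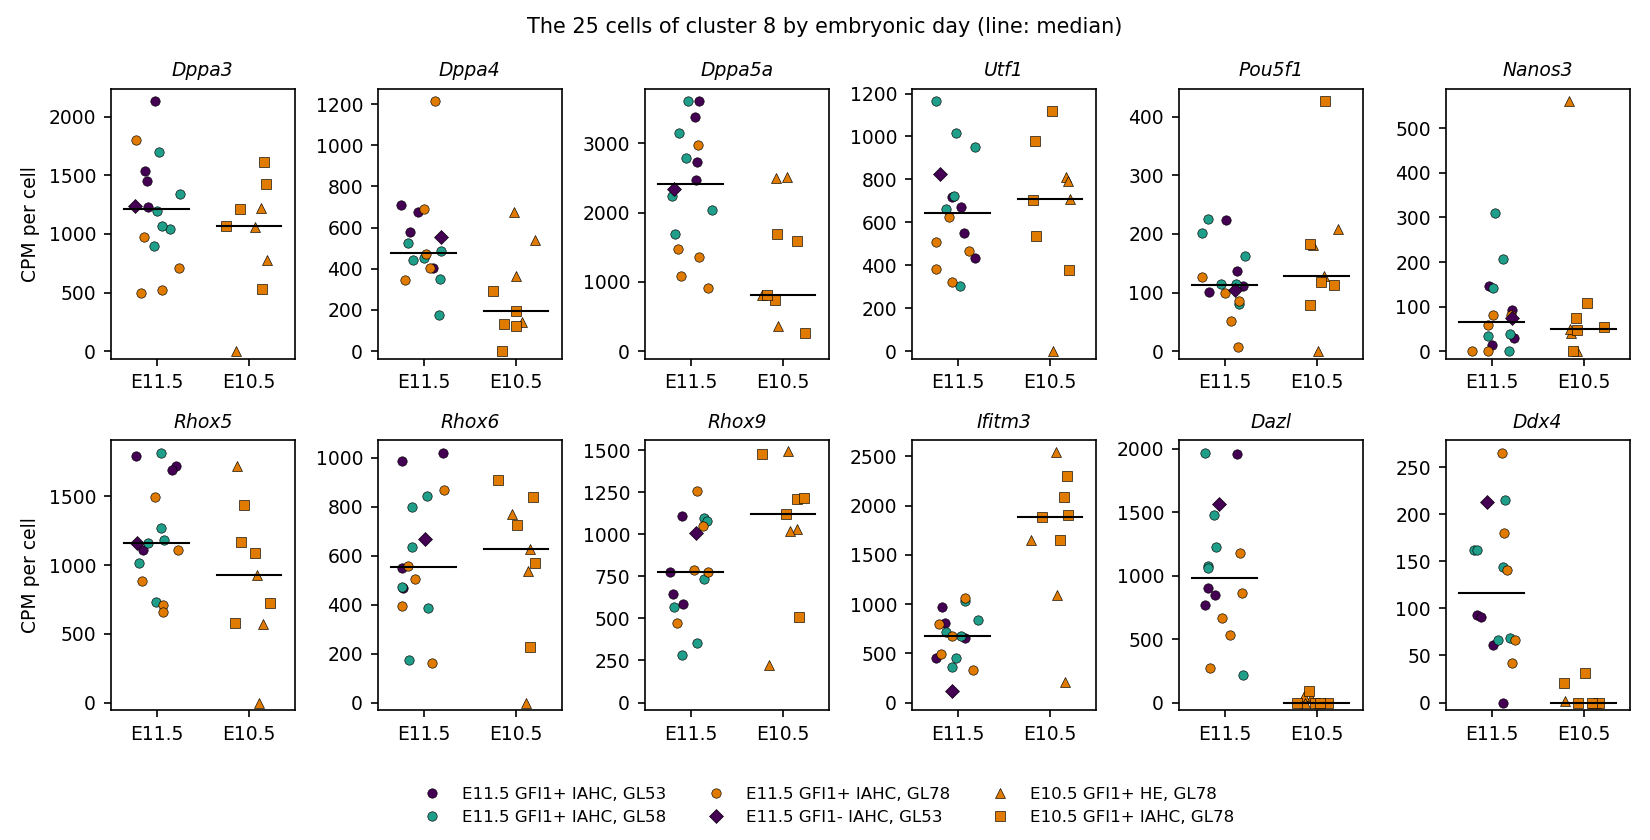
CPM per cell (vertical axis, scales differ) of the 10 members and of Dazl and Ddx4 in the 25 cells of cluster 8, with E11.5 at the left and E10.5 at the right, color for the batch, shape for the gate and a line at the median. Ifitm3 is at 120 to 1062 CPM in E11.5 cells and at 1094 CPM or more in 8 of 9 E10.5 cells, Dazl separates the stages the other way, and the other members overlap.

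The 4 E10.5 GFI1+ HE cells of the cluster carried the members as well. Beside the cell that lacked 5 members, the other 3 had 9 or 10. The median of Utf1 was 703 CPM in the 5 GFI1+ IAHC cells and 751 CPM in the 4 GFI1+ HE cells, that of Dppa3 was 1214 CPM in GFI1+ IAHC and 916.5 CPM in GFI1+ HE cells, and that of Rhox9 was 1212 CPM in GFI1+ IAHC and 1025 CPM in GFI1+ HE cells. For Dppa5a the medians were 804 CPM in GFI1+ IAHC and 1658.5 CPM in GFI1+ HE cells, and for Dppa4 they were 131.7 CPM in GFI1+ IAHC and 452 CPM in GFI1+ HE cells. The ranges of the gates overlapped for all 10 members, but for Dppa4 only through the cell that lacked 5 members. Without it, the other 3 GFI1+ HE cells had 366.2 to 678 CPM of Dppa4, above the 0 to 291.5 CPM of the 5 GFI1+ IAHC cells, and the other 9 members still overlapped.

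The sorter's own readings set the cells of cluster 8 apart from other cells of their gates. Fluorescence was known for 23 of the 25 cells and was compared with the median of the other kept cells of the same gate, stage and batch. cKIT, the receptor for stem cell factor that PGCs and hematopoietic cells share, was above that median in 15 of 23 cells. In E11.5 GFI1+ IAHC these were 4 of 4 cells (GL53), 3 of 4 (GL58) and 3 of 5 (GL78). At E10.5 they were 1 of 5 GFI1+ IAHC and 3 of 4 GFI1+ HE cells, and the GFI1- IAHC cell was also above. The GFI1 reporter was above the median of its gate in 1 of 23, CD45 in 1, CD41 in 2, NOTCH1 in 3, CD31 in 5 and JAG1 in 7, whereas NOTCH2 (13) and DLL4 (11) were near an even split. In the 4 cells of the cKIT- gate, cKIT read 108.8, 340.7, 442 and 31.2 units, against a median of 78.3 in the other E10.5 GFI1+ HE cells of GL78. Among the 24 cells sorted as GFI1+, none had a read of Gfi1 (0 of 24, 0 to 14.2%), compared with 56 of the 613 other cells from GFI1+ gates (9.14%, 6.97 to 11.7%).

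**Figure D4:**
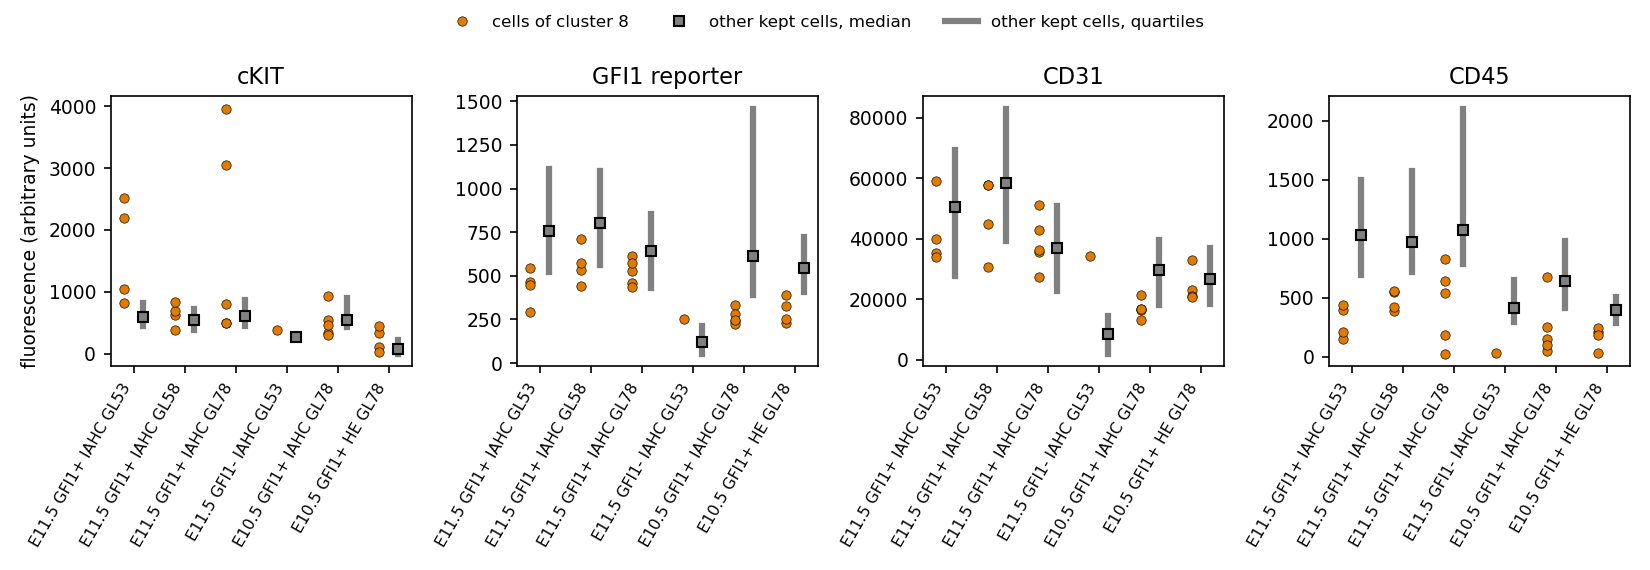
Index-sort fluorescence (arbitrary units, not scaled between sorts) of cKIT, the GFI1 reporter, CD31 and CD45 by gate and batch, with the cells of cluster 8 as dots at the left and the median and quartiles of the other kept cells at the right of each pair. The GFI1 reporter of the GFI1+ cells of cluster 8 lies below the median of its gate, and 4 E11.5 GFI1+ IAHC cells read 2188 to 3959 units of cKIT.

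Other genes of the germ line followed the members. Of 12 measured genes of germ cell specification and identity at 10 CPM or more, 11 were at least 2-fold higher in cluster 8 and none lower (median log2 ratio 5.69). Tcl1, an activator of AKT, led with 260 CPM in cluster 8 and 0 reads elsewhere, then Tfap2c, Alpl (402 CPM in cluster 8, 2.34 elsewhere), Dnd1 (328.1 CPM in cluster 8, 2.21 elsewhere), a partner of NANOS proteins, Prdm14 (95.1 CPM in cluster 8, 0.296 elsewhere) and Sox15 (57.2 CPM in cluster 8, 0.0532 elsewhere). Kit itself was the gene short of 2-fold, with 210 CPM in cluster 8 and 138.4 CPM in the other cells. Of 12 naive pluripotency genes 11 were higher (median 6.02), led by Tdh (359.03 CPM in cluster 8, 0.507 elsewhere), Zfp42 (201.9 CPM in cluster 8, 0.0905 elsewhere) and L1td1 (124.4 CPM in cluster 8, 0.00177 elsewhere), while Klf4 was lower (6.62 CPM in cluster 8, 45.5 elsewhere). All 10 gonadal germ cell genes at the minimum were higher (median 5.29), with Dazl at 658 CPM in cluster 8 and 0.316 CPM elsewhere, Ddx4 at 80.1 CPM in cluster 8 and 0.0585 CPM elsewhere and Piwil2, which makes piRNAs, at 91.97 CPM in cluster 8 and 0.211 CPM elsewhere. These lists were set against the same 17.5% background as the members, and the cluster was built on these genes.

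Lists of germ cell methylation and migration genes had medians below 0. In the methylation list 1 of 8 genes was at least 2-fold higher and 4 lower (median -1.19), where 17.5% of all genes were higher and 28.2% lower. Tet1, which oxidizes methylated cytosine, had 209.4 CPM in cluster 8 and 32.5 CPM in the other cells. Uhrf1, which recruits DNMT1 to new DNA strands, had 15.4 CPM in cluster 8 and 227.4 CPM elsewhere, Dnmt3b, a de novo methyltransferase, 0.821 CPM in cluster 8 and 119.2 CPM elsewhere, and Tet3 0.469 CPM in cluster 8 and 93.2 CPM elsewhere, whereas Dnmt1 had 383.2 CPM in cluster 8 and 222.4 CPM elsewhere. In the migration and adhesion list 3 of 10 were higher and 6 lower (median -1.16). Epcam (303.4 CPM in cluster 8, 6.53 elsewhere) and Cdh1 (57.97 CPM in cluster 8, 2.83 elsewhere), epithelial adhesion genes that PGCs use, were higher with Ror2 (50.1 CPM in cluster 8, 9.24 elsewhere), a WNT5A receptor of migrating PGCs. Itga6 (1.23 CPM in cluster 8, 209.2 elsewhere) and Podxl (0.117 CPM in cluster 8, 88.8 elsewhere), genes that endothelial cells also express, were lower.

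Of the lists of other cell types around the aorta, all but the mesonephric and coelomic list were lower in cluster 8. Of all genes compared, 28.2% were at least 2-fold lower. All 13 endothelial genes were at least 2-fold lower (median -7.68), with a summed level of 0 to 198.5 CPM per cell against a median of 9495 CPM in the other cells, and Cdh5, Kdr, Tek and Tie1 at 0. Of 10 hematopoietic genes 9 were lower (median -5.40, or -7.62 with the 8 genes at 0 set at the bound of 3 counts), and Myb was the other. All 4 mesenchyme, 6 macrophage and 4 erythroid genes at the minimum were lower. The other kept cells also had a median of 0 CPM per cell for the sum of each of these lists. The mesonephric and coelomic list had 2 genes at the minimum (median 2.63). Lhx1 was higher (34.2 CPM in cluster 8, 0.0124 elsewhere) and Krt18 near equal (33.7 CPM in cluster 8, 30.2 elsewhere). The whole list summed to 79.9 CPM in cluster 8 and 60.8 CPM elsewhere. Mesenchyme genes summed to 685 CPM in E11.5 GFI1+ IAHC cell 13, which also had 3817 CPM of the cartilage collagen Col2a1, to 417 CPM in cell 14 and to 124.2 CPM in E10.5 GFI1+ IAHC cell 1, and to at most 4 CPM in each of the other 22. The 10 members summed to 4436, 5295 and 8221 CPM in these 3 cells, and the part of other cells in their values was not tested.

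**Figure D5:**
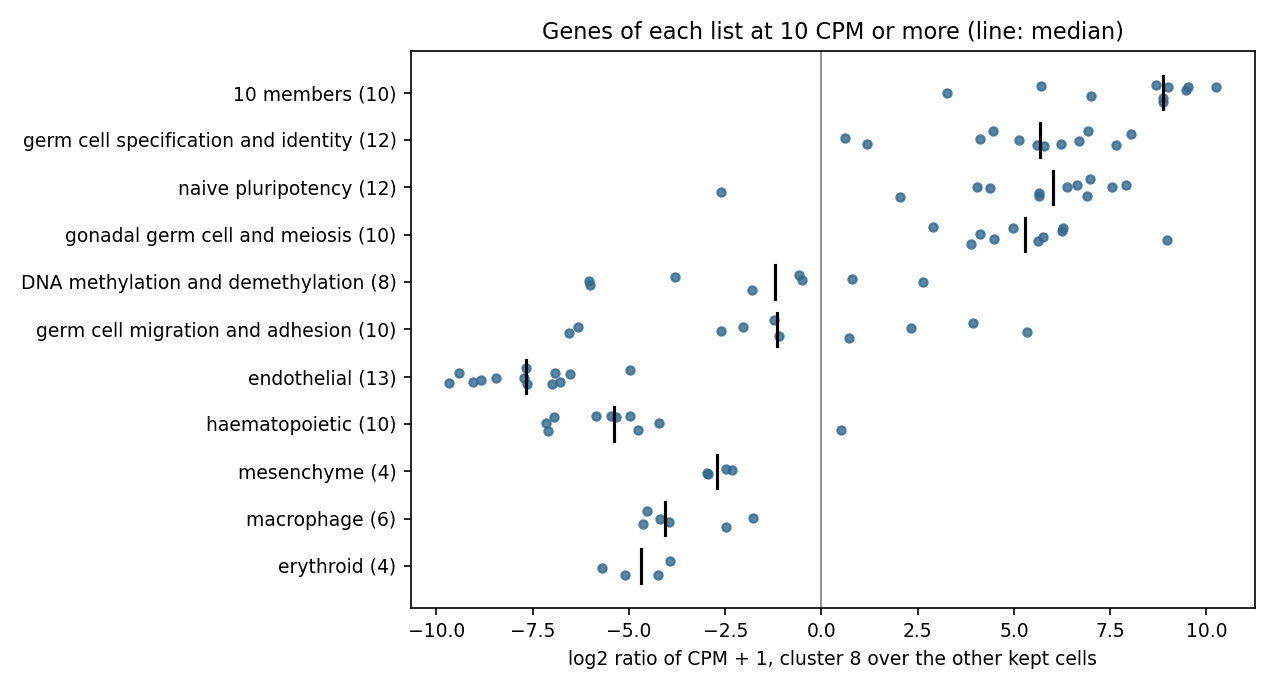
Log2 ratio of cluster 8 over the other kept cells (CPM of summed counts plus 1) for each gene at 10 CPM or more (dots) in the members and 10 further lists, with the number of genes in brackets and a line at the median. The members and the specification, pluripotency and gonadal lists have medians of 5.29 or more, and the endothelial list has the lowest, -7.68.

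The X chromosome, which carries the Rhox members, was read in another way by Xist, the RNA that coats the inactive X. Xist was detected in 1 of 25 cells of cluster 8 (4%, 0.101 to 20.4%) and in 414 of 750 other kept cells (55.2%, 51.6 to 58.8%). The 1 cell was E11.5 GFI1+ IAHC cell 13 (65.8 CPM of Xist), which also had 3817 CPM of Col2a1 and 64.1 CPM of Y-linked genes. The Y-linked Eif2s3y was detected in 15 of 25 cells (60%, 38.7 to 78.9%) and in 36.5% of the 750 others (33.1 to 40.1%), and the other 3 Y-linked genes in 6 to 9 of the 25. By stage, Eif2s3y was detected in 7 of 16 E11.5 cells and 8 of 9 E10.5 cells of the cluster. The part of the sex of the embryos in the Xist difference was not tested.

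Most relatives of the members were below 10 CPM in cluster 8. Of 39 other Rhox genes, 15 had 0 reads in cluster 8 and 3 reached 10 CPM, Rhox2a (24.3 CPM), Rhox2g (21.2 CPM) and Rhox2c (13.1 CPM), near-identical copies whose reads cannot be assigned with certainty. Of the other Dppa genes only Dppa2, the partner of Dppa4, reached it, with 55.7 CPM in cluster 8 and 0.177 CPM in the other cells, and no other Nanos gene did. The relatives Ifitm1 and Ifitm2, also on chromosome 7, were read in cluster 8 and outside, Ifitm1 at 1445 CPM in cluster 8 and 121.8 CPM elsewhere and Ifitm2 at 1109 CPM in cluster 8 and 395 CPM elsewhere, beside 1103 CPM of Ifitm3 in cluster 8.

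Over all 775 kept cells, the genes outside the group whose log2(CPM + 1) was most like the mean of the members were Tcl1 (Pearson r = 0.95), Gstm3 (0.94), Tdh (0.94), Tfap2c (0.93), Zfp42 (0.93), Tex19.1 (0.92), Sox2 (0.92), Dppa2 (0.90), L1td1 (0.90), Pla2g10 (0.89), Ap3b2 (0.89) and Nanog (0.89). These r values describe mainly the step between the 25 cells and the 750 others, and the cells share batches and depth.

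By the authors' phase calls, 12 of the 25 cells (48%) were in S phase, 8 (32%) in G2/M and 5 (20%) in G1, against 9.47%, 40.7% and 49.9% of the other kept cells. The calls read expression, and their part in the members' levels was not tested.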

How the data were processed

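The study measured RNA in single index-sorted AGM cells by Smart-Seq2. The submitters' processing notes name STAR 2.7.3, HTSeq 0.9.1, Scanpy 1.4.4 and the build mm10. The deposited counts are raw reads per gene and cell, with no molecular identifiers. For annotation release, strand setting and duplicate handling, details were not stated in the sources used here. The authors also deposited, per cell, index-sort fluorescence intensity in arbitrary units and the mitochondrial fraction of counts, and they made the Louvain clusters and cell cycle phases. Nothing scales the intensities between sorts, and 9 annotation columns were not used. The normalized table was not used.

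Of the 46078 genes, 45143 were matched by Ensembl ID to a symbol of GENCODE M21 (GRCm38), which left 0.0667% of counts without a symbol, and the 92 spike-in rows held 0 reads. Cells were grouped by the sorting label. Each deposited sample is 1 cell and no embryo is named, so counts were summed over the cells of a group, scaled to counts per 1000000 counts (CPM), and compared as log2 ratios of CPM plus 1, with no test. Genes compared had at least 10 CPM on either side. Gates were compared inside each batch that had 10 or more kept cells on either side, each batch counting the same. Summed counts have exact Poisson intervals and shares exact Clopper-Pearson intervals (95%). A sum of 0 reads was taken as up to 3 counts. Intervals cover counting error only, since reads are not independent molecules. The ratio was tested on simulated data, only for genes at 10 CPM or more in the other kept cells. The simulation did not cover the lower levels of the members other than Ifitm3 there, or folds as large as those of the members. Promoter windows were taken from RefSeq and are not annotated for all members. Doublets were not called, since each well was sorted with 1 cell.

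The members and gene lists were chosen with earlier results of these data known. Named beside the members were relatives by symbol at 10 CPM or more in cluster 8, up to 6 of the highest and 3 of the lowest genes of each list, defining markers, and the 12 genes most like the members' mean. Alternatives were size factors, thinning each cell to 50000 counts, other pseudocounts, no minimum, and leaving out a batch, a member, the cells of cluster 8 or 1 cell. Python 3.11.15, numpy 2.4.6, pandas 2.3.3, scipy 1.17.1 and matplotlib 3.10.9 were used.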

Additional observations from a re-analysis of the deposited data

Results flagged for a closer look

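The members' values in cluster 8 were looked at for single cells far from the others in sets of 4 to 10 cells of 1 gate, stage and batch. Of 50 sets, 4 held such a cell, where chance gives about 1 in 20. In the 4 E10.5 GFI1+ HE cells of GL78, the cell that lacked 5 members had 0 CPM of Utf1, against a median of 751 CPM, and 560 CPM of Nanos3, against a median of 44.8 CPM. In the 4 E11.5 GFI1+ IAHC cells of GL53, 1 cell had 1113 CPM of Rhox5 where the median was 1706 CPM. In the 5 E11.5 GFI1+ IAHC cells of GL78, 1 cell had 2982 CPM of Dppa5a where the median was 1358 CPM.

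Cells that the authors left out also held the members. Of these 85 cells, 4 (4.71%, exact interval 1.30 to 11.6%) had at least 3 of the 9 members other than Ifitm3. An E11.5 GFI1+ IAHC cell of GL53 had all 9, with 1264 CPM of Dppa3 and 3755 CPM of Dppa5a, and 447656 counts. An E11.5 GFI1+ IAHC cell of GL78 had 8, with 1199 CPM of Dppa3, 2445 CPM of Dppa5a and no Nanos3. The other 2 were E11.5 GFI1- IAHC cells of GL53, with 5 members at 2235 CPM in all and 3 members at 754 CPM in all, most of it Rhox9 (715 CPM). These cells have no cluster, so they are in no count of cluster 8.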

How the results depend on the processing

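Under 11 alternatives, all 110 member log2 ratios of cluster 8 over the other kept cells stayed above 0, between 2.46 and 11.66. Their median was 8.64 with each cell thinned to 50000 counts, 8.69 with size factors, 9.10 without GL53, and 10.43 and 6.01 with pseudocounts of 0.1 and 10 CPM, so its size follows the pseudocount. The summed level in cluster 8 was 7264 CPM with size factors, 7184 CPM without Ifitm3 and 6273 CPM without Dppa5a. The 4 kept cells outside cluster 8 with at least 3 members became 1 without GL53 and 8 with the left-out cells. With no minimum, 10.1% of genes were at least 2-fold higher in cluster 8.

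The ratio of E11.5 GFI1+ IAHC over GFI1+ HE was 8.04 without Ifitm3, and turned to -0.40 without the cells of cluster 8. That over GFI1- IAHC was 2.89 without Ifitm3 and 0.61 without cluster 8. That over E10.5 GFI1+ IAHC was -0.38 with the mean of single-cell CPM, -0.40 thinned, -0.68 with size factors, -0.38 with left-out cells, -0.29 without Ifitm3, -0.76 without Dppa5a and -0.73 without cluster 8. In the ratios without cluster 8, Ifitm3 made up most of each sum.

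Within cluster 8, the E11.5 over E10.5 ratio of the sum, 0.05, was near 0 and changed sign with the setting: 0.10 with the mean of single-cell CPM, 0.12 thinned, -0.16 with size factors, -0.031 without GL53, 0.014 without GL58, 0.30 without Ifitm3, -0.21 without Dppa5a, -0.020 without the cell that lacked 5 members and -0.25 in the GFI1+ IAHC cells of GL78. The last 2 of these, the count of cells with the left-out cells, the member ratios within batches, and leaving 1 cell out of cluster 6 or out of the gates within cluster 8 were chosen after seeing the data. The cause of these changes was not tested. No paired analysis was possible because replicate numbers only name the cells. Gates were instead paired by batch, where the GFI1+ IAHC over GFI1+ HE ratio had an SD of 1.47 over 3 batches, and no test was run over the batches. Ratios without GL78 and the GFI1+ over GFI1- ratio within cluster 8, which had 1 GFI1- cell, gave no value where 1 side was missing. The 25 cells limit the precision of every value. All members but Utf1, Nanos3 and Rhox5 share some sequence with other genes. Dppa4, Dppa5a and Rhox6 share the most, and Pou5f1 shares 7.36% of its 75-base windows.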
